A study of Mus musculus with 2 samples.

Results

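The genes that encode histones were examined in mouse T cells after 1 day of culture with or without Tubastatin A. They were all rows whose gene symbol starts with Hist1h to Hist4h (clustered genes) or with H2af, H3f or H1f (variant genes), which gave 84 of 23282 rows, 68 clustered and 16 variant. Naïve CD4+ T cells were taken from spleens of wild-type female C57BL/6 mice aged 7 to 10 weeks, activated with anti-CD3ε and anti-CD28, and cultured with IL-2, TGF-β1 and antibodies to IFN-γ and IL-4, which turns them into induced regulatory T (iTreg) cells. The control culture received DMSO and the other received 10 μM Tubastatin A (TSA), an inhibitor of the deacetylase HDAC6. A single culture per condition was sequenced, which gave 1 control and 1 TSA library, and no difference given here has a replicate check or a p-value. The question was how the histone genes differed between control and TSA-treated iTreg cells, and whether clustered and variant genes differed alike.

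DNA in the nucleus is wound around an octamer of the core histones H2A, H2B, H3 and H4, and the linker histone H1 binds where the DNA enters and leaves it. The clustered genes make the bulk of the histones while DNA is copied in S phase, and their transcripts are unusual in ending with a short RNA stem-loop in place of a poly(A) tail. The variant genes mostly lie outside the clusters, are transcribed throughout the cell cycle and give polyadenylated transcripts, whose proteins replace the common histones at particular places in chromatin. Sequencing used a QuantSeq preparation, which primes on poly(A), so reads of clustered genes come from a kind of transcript that the method is not designed to capture.

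The stem-loops are shown because they mark the transcripts of the clustered genes. A perfect 6-base stem around a 4-base loop, with the letters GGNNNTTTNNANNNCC, was searched in the sense strand of the GENCODE M21 transcripts (GRCm38, the same assembly as mm10). It was found in 44 of the 68 clustered genes and in 1 of the 16 variant genes, H2afx, in each of them in the 3′ UTR. Capitals mark the 16-base stem-loop.
Hist1h2ap: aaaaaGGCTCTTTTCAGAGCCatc
Hist1h2bb: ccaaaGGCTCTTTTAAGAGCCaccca
Hist1h3a: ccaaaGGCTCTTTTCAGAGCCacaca
Hist1h4n: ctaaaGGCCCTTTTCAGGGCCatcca
Hist1h4b: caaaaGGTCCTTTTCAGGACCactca
H2afx: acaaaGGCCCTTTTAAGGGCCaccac

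These 6 stem-loops lie at chr13:21833029-21833044 on the minus strand (Hist1h2ap), chr13:23747203-23747218 on the plus strand (Hist1h2bb), chr13:23761890-23761905 on the minus strand (Hist1h3a), chr13:21831798-21831813 on the minus strand (Hist1h4n), chr13:23757366-23757381 on the plus strand (Hist1h4b) and chr9:44335240-44335255 on the plus strand (H2afx). The form of Hist1h2ap, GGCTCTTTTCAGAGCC, was found in 26 clustered genes, of which 10 encode H2A, 8 H2B, 5 H3 and 3 H1. The form of Hist1h4n, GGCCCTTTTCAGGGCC, was found in 7 genes, all of which encode H4. For the other 24 clustered genes no match was found in the annotated transcripts, and 11 of these are protein-coding genes whose longest annotated transcript runs from ATG to a stop codon, with no UTR.

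The deposited level of a gene is log2 of a normalized count plus 1, and whole reads could be recovered from it. The libraries held 10846166 reads (control) and 10432628 reads (TSA). The precursor of ribosomal RNA, Rn45s, took up 8.72% and 9.63% of them. The 8 general and CD4 T cell markers examined (Cd3d, Cd3e, Cd3g, Cd4, Cd28, Cd5, Lck and Zap70) were all present and summed to 17674 and 18202 reads, whereas B cell markers summed to 12 and 15 reads, myeloid markers to 63 and 50, and erythroid markers to 43 and 58. Foxp3, the defining transcription factor of regulatory T cells, had 1633 and 965 reads. Every difference below is the TSA level minus the control level on the log2 scale, and each fold change (TSA over control) has an exact 95% Clopper-Pearson interval from the reads, which covers counting error only.

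Of the 84 histone genes, 71 had a level of 3.5 or more in either library, which corresponds to a normalized count of 10.3. They comprised 62 clustered and 9 variant genes. Of the 13 genes under this minimum, 5 had no read in either library (H2afb1, H2afb2, H2afb3, H1foo and H1fnt), and the other 8 had 10 reads or fewer in each library. Hist1h2aa alone passed the minimum only through the control library, so its difference was bound to be negative.

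Clustered histone genes were mostly lower in the TSA library, whereas most variant genes differed by less and in both directions. The median difference was -0.92 on the log2 scale over the 62 clustered genes (range -1.86 to 0.97) and -0.11 over the 9 variant genes (range -1.12 to 0.44), which is a difference of medians of -0.81. By class, the median was -1.15 over 34 clustered H2A and H2B genes and -0.06 over 23 clustered H3 and H4 genes. The variant genes include no H2B or H4, so the groups also differ in class. Over all 12019 genes that passed the same minimum, the median was 0.012. Among the clustered genes 50 were lower and 12 higher, beside 48.8% of all genes lower at any size. Lower by over 2-fold were 30 of the clustered genes and 1 variant gene, where 3.0% of all genes were lower by over 2-fold. No histone gene was higher by over 2-fold, where 11.1% of all genes were. The whole interval lay below 1 for 40 clustered and 4 variant genes, beside 28.2% of all genes, and above 1 for 2 clustered and 3 variant genes, beside 28.0%. Because these are bulk samples, fewer cells with the transcripts and less of the transcripts per cell cannot be told apart. Since reads were primed on poly(A), nor can a smaller share of clustered transcripts with a poly(A) tail.

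**Figure D1:**
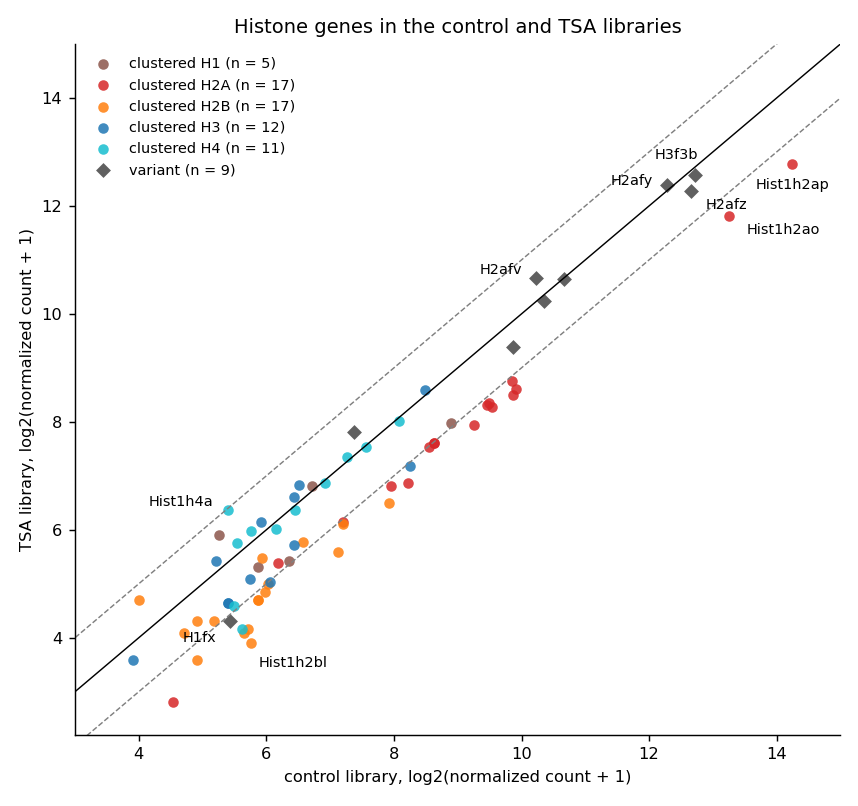
Level of each of the 71 histone genes in the control library (horizontal axis) and the TSA library (vertical axis), both as log2(normalized count + 1), with circles for clustered genes by class and diamonds for variant genes. The solid line marks equal levels and the dashed lines a 2-fold difference. Most H2A and H2B circles lie on or under the lower dashed line, and every diamond but H1fx lies near the solid line.

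Summed over all members, whatever their level, clustered genes had 40778 control reads and 17178 TSA reads, a ratio after the authors' scaling of 0.417 (0.410 to 0.425). The variant genes summed to 23353 and 21839 reads, a ratio of 0.926 (0.909 to 0.943). As a share of all reads, clustered genes went from 0.376% (control) to 0.165% (TSA) and variant genes from 0.215% to 0.209%. A pair of H2A genes, Hist1h2ap and Hist1h2ao, made up 71.0% (control) and 62.2% (TSA) of the clustered reads. Without this pair the clustered genes had 11806 and 6499 reads, a ratio of 0.545 (0.529 to 0.562), so the sum was still lower but by less, and the median of the other 60 genes was -0.92. How reads that match several genes were counted is not given in the sources used here. A read could count more than once in these sums, in the shares below and in their intervals.

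The core histone classes differed in size of change. Clustered H2A genes had a median difference of -1.15 and H2B genes of -1.13, while the medians were -0.50 for H3 and -0.05 for H4. Summed reads went from 36476 to 13985 for H2A (ratio 0.380, 0.372 to 0.387), from 1215 to 549 for H2B (0.447, 0.404 to 0.495), from 1223 to 1027 for H3 (0.832, 0.765 to 0.904) and from 1115 to 1114 for H4 (0.989, 0.910 to 1.08). The intervals of H2A and H2B lay entirely below those of H3 and H4. The median of H4 was so close to 0 that it turned to 0.019 when libraries were scaled by total reads and to 0.033 when Rn45s was left out of the total, and the other 4 class medians kept their sign under all 5 other scalings. The share of H2A among the clustered reads was 89.5% (control) and 81.4% (TSA), whereas that of H4 was 2.73% and 6.48% and that of H3 2.999% and 5.98%.

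**Figure D2:**
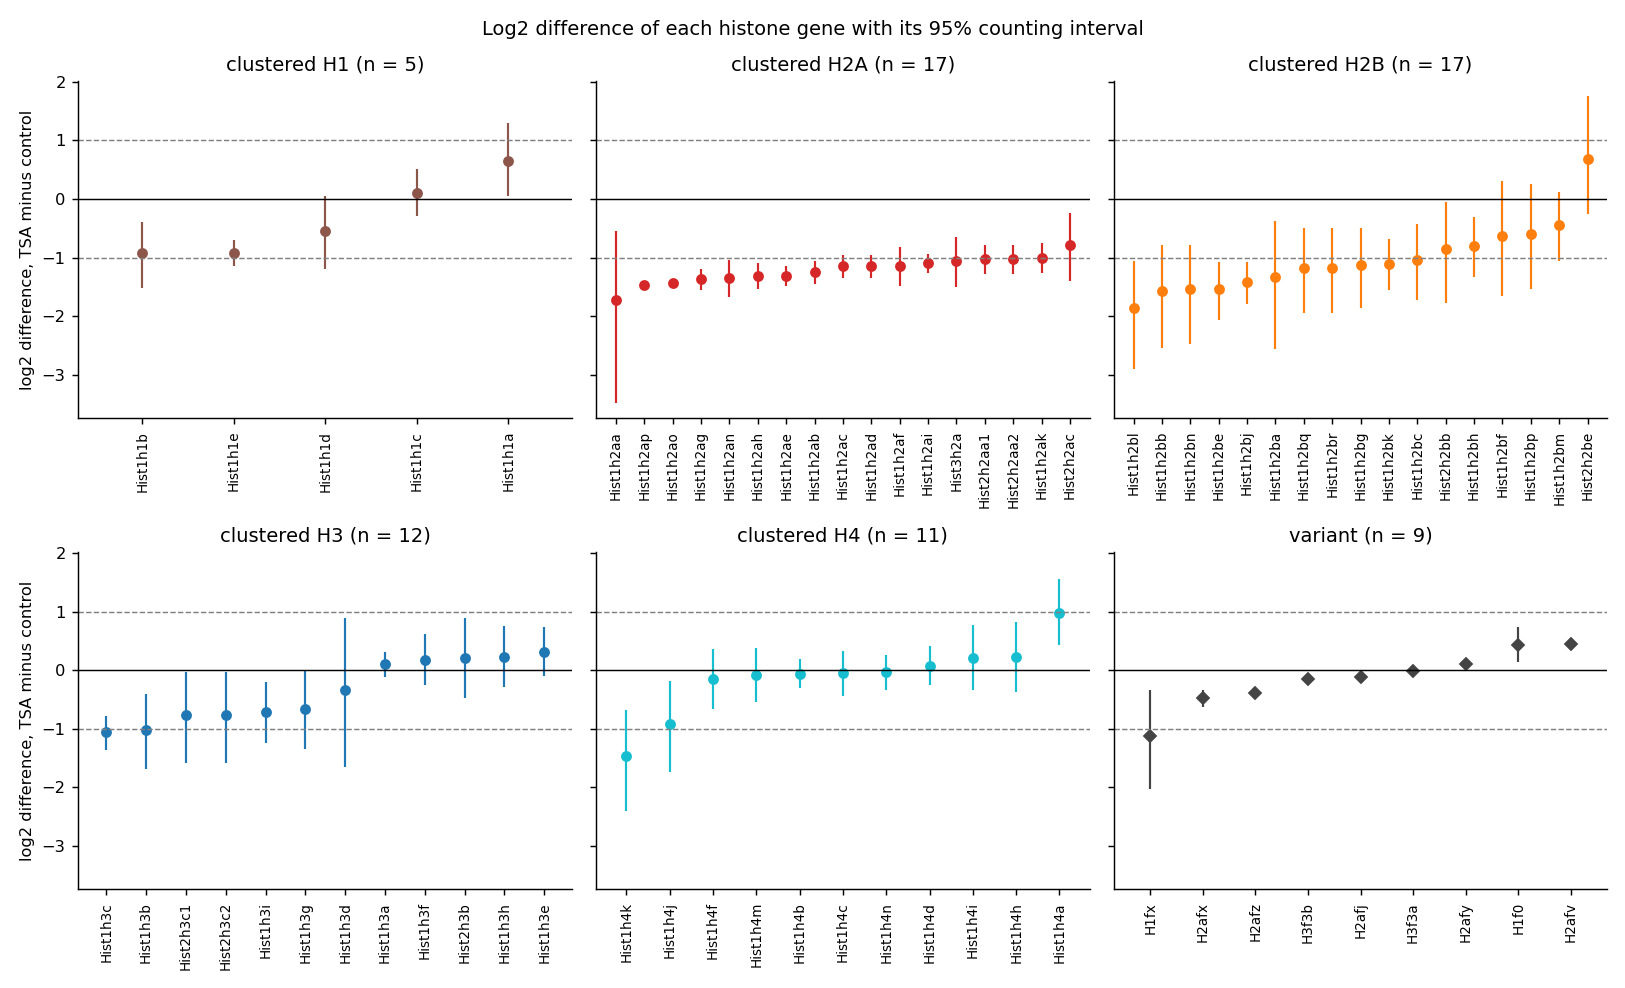
Log2 difference (TSA minus control) of each of the 71 histone genes, ordered within its class, with vertical lines for the exact 95% counting interval and dashed lines at a 2-fold difference. All 17 H2A genes lie below 0, most H4 points lie near 0, and the 9 variant genes lie between -1.12 and 0.44, where the direction of the points nearest 0 turns with the scaling.

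H2A enters the nucleosome as a dimer with H2B. All 17 clustered H2A genes that passed the minimum were lower in the TSA library, 16 of them by over 2-fold, and the interval lay below 1 for all 17, beside 48.8%, 3.0% and 28.2% of all genes. These counts include Hist1h2aa, whose direction was fixed by the minimum. Under scaling by total reads 12 of the 17 passed 2-fold, since Hist1h2ak, Hist3h2a, Hist2h2aa1 and Hist2h2aa2 then lay just inside it. Hist1h2ap had 19306 control reads and 7077 TSA reads, levels of 14.24 and 12.78 and a fold change of 0.363 (0.353 to 0.373). Hist1h2ao gave 9666 and 3602 reads (fold change 0.369, 0.355 to 0.383). Their reads stood in nearly the same ratio in both libraries, 1.997 and 1.965. Next by reads came Hist1h2ae, with 960 and 391 reads (0.404, 0.358 to 0.454), Hist1h2ag, with 926 and 362 (0.388, 0.342 to 0.438), and Hist1h2ai, with 917 and 431 (0.466, 0.414 to 0.522). The lower level was thus seen in genes with many reads and in genes with far fewer. Most of these genes share parts of their transcripts with Hist1h2ap and Hist1h2ao, so they are not separate observations. For 7 of the H2A genes the whole interval lay beyond a 2-fold fall, beside 0.782% of all genes. The smallest difference was that of Hist2h2ac, -0.79 from 71 and 41 reads. Hist1h2aa, a testis-specific H2A, had 22 and 6 reads.

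The H2B genes gave far fewer reads per gene than the H2A genes. Of 17 above the minimum, 16 were lower, 11 by over 2-fold, and for 13 the interval lay below 1, beside 48.8%, 3.0% and 28.2% of all genes. Hist1h2bj, the H2B gene with the most reads, had 241 control reads and 90 TSA reads (fold change 0.372, 0.287 to 0.473). Hist1h2be had 137 and 47 reads (0.345, 0.239 to 0.476), and Hist1h2bl had 53 and 14 (0.275, 0.134 to 0.478). The fold of Hist1h2bl was the lowest of the 71 histone genes, and its interval also held the values of most H2A genes. The exception was Hist2h2be, with 15 and 25 reads, a difference of 0.69 whose interval of fold change, 0.837 to 3.37, included 1. Its annotated transcript of 2620 nt held no match to the stem-loop and carried the poly(A) signal letters AATAAA in its last 50 bases.

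H3 and H4 form the tetramer at the centre of the nucleosome. Of 12 H3 genes 7 were lower and 5 higher in the TSA library, a division near that of all genes (48.8% lower and 51.2% higher). As deposited, the interval lay below 1 for 6 of the 12 and above 1 for none, beside 28.2% and 28.0% of all genes. Hist1h3c had 301 and 145 reads (fold change 0.479, 0.389 to 0.583) and Hist1h3b 65 and 32 (0.495, 0.309 to 0.755), and these were the H3 genes past 2-fold, beside 3.0% of all genes lower by as much, though neither was when scaled by total reads (-0.99 and -0.95). Hist1h3a, the H3 gene with the most reads, had 354 and 384 (1.07, 0.927 to 1.24). Hist1h3e, Hist1h3f, Hist1h3h and Hist2h3b also had differences above 0, from 0.18 to 0.31, and for all 5 of these genes the interval included 1. Hist1h3a and Hist1h3c thus stood apart from each other beyond counting error, since their intervals did not overlap.

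Among 11 H4 genes 7 were lower and 4 higher as deposited, and scaling by total reads left 4 lower, beside 48.8% of all genes lower and 51.2% higher as deposited, so no direction is read from these counts. The genes with the most reads were level. Hist1h4b had 268 and 260 reads (fold change 0.961, 0.807 to 1.14), Hist1h4n 187 and 184 (0.974, 0.791 to 1.201) and Hist1h4d 152 and 162 (1.06, 0.841 to 1.33). For these 3 genes a fall of the size seen in any of the 5 H2A genes with the most reads lay outside the interval. Hist1h4k, with 48 and 17 reads (0.364, 0.189 to 0.621), and Hist1h4j, with 44 and 23 (0.528, 0.298 to 0.876), were lower. Hist1h4a was higher, with 41 and 82 reads (1.96, 1.35 to 2.96), the largest difference above 0 among the 71 genes, 0.97, and it passed 2-fold when scaled by total reads.

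The clustered H1 genes, which encode the linker histone, summed to 749 and 503 reads (ratio 0.665, 0.593 to 0.746). Hist1h1e held most of them, with 470 control reads and 251 TSA reads (fold change 0.530, 0.452 to 0.618). Hist1h1b had 80 and 42 reads (0.526, 0.349 to 0.764), Hist1h1d 57 and 39 (0.683, 0.439 to 1.04) and Hist1h1c 103 and 112 (1.08, 0.817 to 1.42). In contrast, Hist1h1a had 37 and 59 reads (1.56, 1.03 to 2.45). None of these 5 genes passed 2-fold, beside 14.1% of all genes, and Hist1h1a was the only one whose interval lay above 1.

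The variant genes differed by their kind. H2afz and H2afv encode the forms of H2A.Z, which is placed at promoters and other regulatory sites, and they went opposite ways. H2afz had 6448 control reads and 4979 TSA reads (fold change 0.765, 0.737 to 0.794), and H2afv had 1193 and 1640 (1.36, 1.26 to 1.47). H2afx, whose protein is phosphorylated at DNA breaks and whose transcript has the stem-loop, had 929 and 671 reads (0.716, 0.647 to 0.791). The intervals of all 3 genes lay away from 1, and none of them reached 2-fold.

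H2afy, which encodes macroH2A, a large H2A with an added domain, had 4962 and 5382 reads (fold change 1.07, 1.03 to 1.12), and H2afj had 1302 and 1216 (0.925, 0.855 to 1.001). H3f3a and H3f3b encode the same protein, H3.3, the replacement H3 used outside DNA replication. H3f3b had 6689 and 6088 reads (0.901, 0.870 to 0.933) and H3f3a 1613 and 1607 (0.986, 0.920 to 1.06). The direction of H3f3a turned under other scalings. Of the linker variants, H1f0, a form that accumulates in cells that have stopped dividing, had 164 and 224 reads (1.35, 1.10 to 1.66), and H1fx had 42 and 19 (0.461, 0.246 to 0.787), the variant gene that was lower by over 2-fold. Cenpa, which encodes the centromeric H3 and is outside the symbol rule, had 282 and 163 reads (0.574, 0.469 to 0.697).

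The make-up of the H2A-family reads differed between the libraries, since the clustered genes were lower by more than any of the 5 H2A variants. These are shares of reads, not of transcripts or protein. Clustered H2A genes gave 71.1% of the 51321 H2A-family reads of the control (exact 95% interval 70.7% to 71.5%) and 50.2% of the 27886 under TSA (49.6% to 50.7%). The share of H2afy was 9.67% and 19.3%, that of H2afz 12.6% and 17.9%, and that of H2afv 2.32% and 5.88%. H2afz thus took a larger share of the TSA reads even though its own level was lower. Among H1 reads, H1f0 took 17.2% of the control reads (14.8% to 19.7%) and 30.0% under TSA (26.8% to 33.5%). Among H3 reads the shares were close, with 12.8% and 11.8% for the clustered genes, 70.2% and 69.8% for H3f3b and 16.9% and 18.4% for H3f3a.

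**Figure D3:**
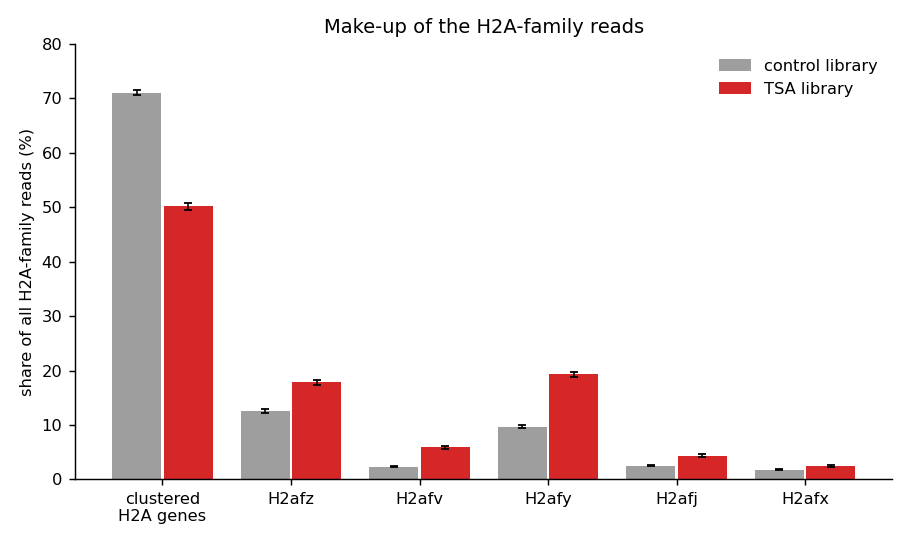
Share of all H2A-family reads, in percent, that came from the clustered H2A genes and from each of 5 variant genes, in the control library (grey) and the TSA library (red), with exact 95% binomial intervals. The clustered share is 71.1% against 50.2%, and each variant share is larger in the TSA library.

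Most clustered genes lie on chromosome 13, in 2 blocks of the largest histone cluster. The block at chr13:21715763-22043676 holds 23 genes, with a median difference of -1.11, and the block at chr13:23531050-23934851 holds 31, of which 30 passed the minimum, with a median of -0.73. By class, the H2A medians of the first and second block were -1.349 and -1.204, the H2B medians -1.17 and -1.13, and the H4 medians -0.08 and 0.01, of which the first turned to 0.002 with total reads without Rn45s. The H3 medians were -0.24 (2 genes) and -0.34 (7 genes). For H1 the 1 gene of the first block had -0.93, and the 4 of the second had a median of -0.22 (range -0.92 to 0.65). Genes of the Hist2 cluster on chromosome 3 had a median of -0.78 (8 genes).

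Many H2A genes start back to back with an H2B gene on the other strand. There were 13 such pairs with starts within 1000 nt of each other, and in 12 both genes passed the minimum, with 175 to 305 nt between their starts. Both genes were lower in 11 of the 12 pairs and both by over 2-fold in 9, where 48.8% and 3.0% of all single genes were. Both counts include the pair of Hist1h2aa, whose direction was fixed by the minimum. Nearly all H2A and H2B genes were lower whether paired or not, so these counts say nothing about pairing. Outside such pairs, all 4 H2A genes above the minimum and all 5 H2B genes were also lower, with medians of -1.09 and -0.86, beside -1.31 and -1.15 within pairs. The closest values were those of Hist1h2ag and Hist1h2bj, -1.37 and -1.43. The exception was Hist2h2ac and Hist2h2be, -0.79 and 0.69. In the 1 pair of an H2B with an H3 gene, Hist1h2bh had -0.80 and Hist1h3f 0.18.

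**Figure D4:**
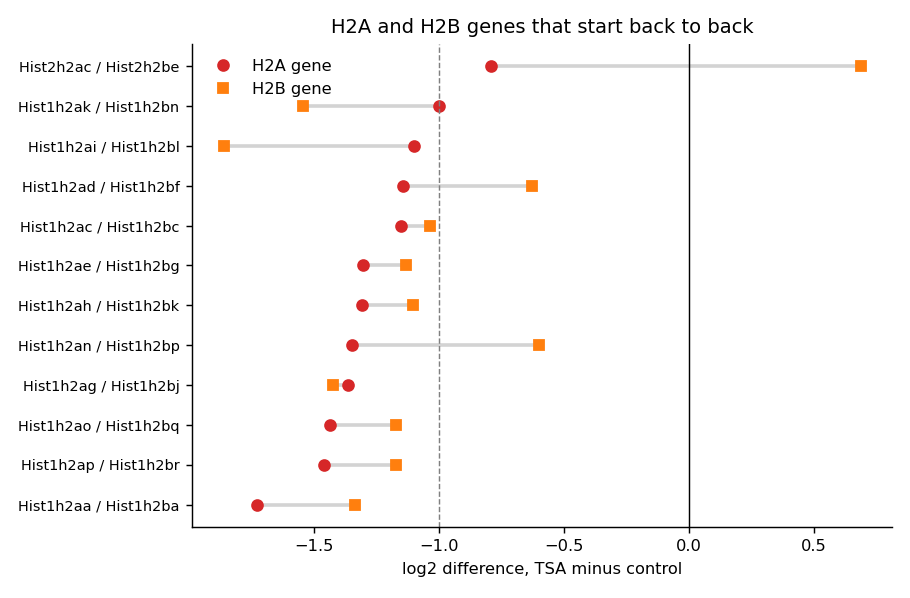
Log2 difference (TSA minus control) of the H2A gene (circle) and the H2B gene (square) in each of 12 pairs that start back to back, joined by a line, with a dashed line at a 2-fold fall. Both symbols lie below 0 in 11 pairs, and Hist2h2be alone lies above 0.

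The promoters of a pair member, an H4 gene and a variant gene are printed because their classes differed in the readout. They run from 250 bases before to 50 after the RefSeq start (GRCm38.p6), 5′ to 3′ on the strand of the gene, and capitals mark CCAAT as well as TATAAA and ATTTGCAT on either strand. The window of Hist1h2ae (chr13:23571171-23571470, minus strand) also spans the gap to its partner Hist1h2bg and the start of that gene, and the others are Hist1h4n (chr13:21832148-21832447, minus strand) and H2afv (chr11:6444394-6444693, minus strand).
Hist1h2ae: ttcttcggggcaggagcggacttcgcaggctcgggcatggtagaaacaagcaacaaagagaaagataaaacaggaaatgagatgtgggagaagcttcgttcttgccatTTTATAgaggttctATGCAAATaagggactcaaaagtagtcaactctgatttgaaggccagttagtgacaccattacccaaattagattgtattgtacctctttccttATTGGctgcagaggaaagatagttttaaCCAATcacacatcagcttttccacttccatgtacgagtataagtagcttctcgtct
Hist1h4n: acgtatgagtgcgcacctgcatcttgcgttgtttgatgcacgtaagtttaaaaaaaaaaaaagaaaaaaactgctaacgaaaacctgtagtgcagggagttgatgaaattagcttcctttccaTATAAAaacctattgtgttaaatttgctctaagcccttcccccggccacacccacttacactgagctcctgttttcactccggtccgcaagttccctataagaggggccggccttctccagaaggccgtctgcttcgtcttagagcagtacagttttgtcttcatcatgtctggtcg
H2afv: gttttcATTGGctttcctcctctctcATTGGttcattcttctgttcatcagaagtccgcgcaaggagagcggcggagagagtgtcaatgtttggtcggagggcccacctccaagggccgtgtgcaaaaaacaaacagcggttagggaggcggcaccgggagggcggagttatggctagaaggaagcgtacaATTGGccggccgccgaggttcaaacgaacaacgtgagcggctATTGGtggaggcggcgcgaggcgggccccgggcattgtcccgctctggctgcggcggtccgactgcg

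RefSeq promoters were matched for 74 of the 84 histone genes, 61 clustered and 13 variant. CCAAT, the site of the factor NF-Y, was present in 52 of the 61 clustered promoters, with 17 of 17 for H2A, 16 of 16 for H2B, 10 of 10 for H3 and 6 of 6 for H1 but 3 of 12 for H4, and in 9 of 13 variant promoters, beside 37.92% of 27025 promoters of the same length. ATTTGCAT, the octamer bound by POU factors, was present in 7 of 17 H2A and 6 of 16 H2B promoters, in none of the 28 clustered promoters of H1, H3 and H4, in 1 of 13 variant promoters (H3f3b), and in 1.75% of all promoters. TATAAA was present in 35 of the 61 clustered, 1 of 13 variant and 14.16% of all promoters. Paired genes share part of their window, so their matches are not separate. H4 was therefore the class with the smallest share of promoters that held CCAAT and the class whose summed reads differed least, and what these letters have to do with the reads was not tested.

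Several features of the transcripts bear on what a read of a clustered gene is. The clustered genes with a stem-loop match had a median difference of -0.80 (40 genes above the minimum) and those without of -1.07 (22 genes), but 9 of the 11 H4 genes were among the first. Within classes the medians with and without a match were -1.15 and -1.23 for H2A, -1.11 and -1.17 for H2B, -0.55 and -0.23 for H3, -0.55 and -0.14 for H1, and -0.05 (a sign that turns with the scaling) and -0.25 for H4. Those with AATAAA in the last 50 bases of a transcript had a median of -0.92 (11 genes) and those without of -0.93 (51 genes). By stem-loop form, the 10 H2A genes with the Hist1h2ap form had a median of -1.204 and the 5 H3 genes with the same letters one of -0.76, with Hist1h3a at 0.10, while the 6 H4 genes with the Hist1h4n form ranged from -0.14 to 0.22, the sign of those nearest 0 turning with the scaling. Genes with identical stem-loops thus differed from each other.

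Clustered genes are near copies of each other, and a 75-nt read can match several. In 57 of 62 clustered genes some 75-nt stretches of the transcript were shared with another histone gene, with a median over all members of 68.0% of stretches for H2A, 36.6% for H2B, 52.4% for H3, 24.6% for H4 and 0.8% for H1. Values of single clustered genes, and sums and shares over them, are therefore uncertain where reads could be split or counted more than once. Of the 9 variant genes, H2afx alone shared any (3.3%). Only transcripts of the 84 histone genes were compared, so sharing with other genes or pseudogenes was not examined. The 5 clustered genes that shared none ranged from -1.73 (Hist1h2aa, whose direction was fixed by the minimum) to 0.69 (Hist2h2be), with a median of -0.86. Over the 10 with under 10% shared the median was -0.71 and 3, Hist1h2aa among them, were lower by over 2-fold, beside 3.0% of all genes, while Hist2h2be, Hist1h1a, Hist1h1c and Hist1h4d were above 0. That share is low in some genes because their annotated transcripts are long, as in Hist1h2ac (2482 nt). Hist3h2a, with 0.8% shared, had a difference of -1.06 from 146 and 70 reads, and of -0.99 when scaled by total reads. It overlaps Trim17 on the same strand, so its reads may not be its own alone. Hist1h1e and Hist1h2be likewise overlap each other. Identical values in both libraries were listed for 3 pairs of genes, Hist2h2aa1 with Hist2h2aa2, Hist1h2bq with Hist1h2br, and Hist2h3c1 with Hist2h3c2. All 17 H2A genes above the minimum also overlap an annotated gene on the other strand, as do 1 each of the H2B, H3 and H4 genes, and since the strand used in counting is not given in the sources used here, reads of such partners cannot be told apart.

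The medians of genes that make or carry histones were closer to 0 than that of all clustered genes. The median of clustered H4 genes, -0.05 as deposited, was closer still. Of 18 genes for the transcription, processing and decay of histone transcripts, 15 were lower and 3 higher as deposited (14 and 4 when scaled by total reads), and none was past 2-fold, beside 14.1% of all genes, with a median of -0.20, and the interval lay below 1 for 10, beside 48.8% of all genes lower and 28.2% with the interval below 1. Zfp473, with 16 and 9 reads, passed the minimum only through the control library, so its direction was fixed. Slbp, whose protein binds the stem-loop, had 747 control reads and 517 TSA reads (fold change 0.686, 0.611 to 0.768). Npat, the coactivator of the clustered genes, had 605 and 552 (0.904, 0.804 to 1.02), and Casp8ap2, its partner in the histone locus body, 1537 and 1365 (0.880, 0.817 to 0.947). The difference of Slbp was thus larger than those of Npat and Casp8ap2, whose intervals lay above that of Slbp.

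Of 33 genes for histone chaperones and exchange factors, 26 were lower and 7 higher as deposited (23 and 10 when scaled by total reads), beside 48.8% and 51.2% of all genes, and none was past 2-fold, beside 14.1%, with a median of -0.30, and the interval lay below 1 for 22 and above 1 for 2, beside 28.2% and 28.0% of all genes. Chaf1a, the large subunit of the factor that places new H3 and H4 behind the replication fork, had 1124 and 792 reads (fold change 0.698, 0.636 to 0.765). Nasp, a carrier of free H3 and H4, had 5815 and 4516 (0.769, 0.740 to 0.800), and Hira, which places H3.3, had 283 and 232 (0.812, 0.679 to 0.969). Anp32e, which removes H2A.Z, had 4829 and 5162 (1.06, 1.02 to 1.10). Cabin1, a partner of Hira, was the highest of the 33, with 562 and 740 (1.30, 1.17 to 1.46). Not all assembly genes were lower. The intervals included 1 for Asf1a, with 798 and 829 reads (1.03, 0.932 to 1.14), Rbbp4, with 5958 and 5984 (0.995, 0.959 to 1.03), and Mcm2, with 3726 and 3714 (0.987, 0.943 to 1.03).

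The clustered genes are expressed in S phase, and 20 S-phase genes were read beside them. All 20 were lower as deposited, and 19 when scaled by total reads, where Cdt1 turned above 0, beside 48.8% of all genes lower as deposited. The median was -0.41, and the interval lay below 1 for 19, beside 28.2% of all genes. Past 2-fold, beside 3.0% of all genes lower by as much, were Ccne2, a cyclin of S-phase entry, with 1882 and 797 reads (fold change 0.420, 0.386 to 0.456), and Rrm2, a subunit of the enzyme that makes deoxynucleotides, with 2141 and 978 (0.452, 0.419 to 0.488). Their folds were close to those of the H2A genes, while Pcna, the replication clamp, had 3627 and 2724 (0.744, 0.707 to 0.782). A lower level of S-phase genes had already been seen in these libraries, so it is no independent support, and its part in the difference of the histone genes was not tested.

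**Figure D5:**
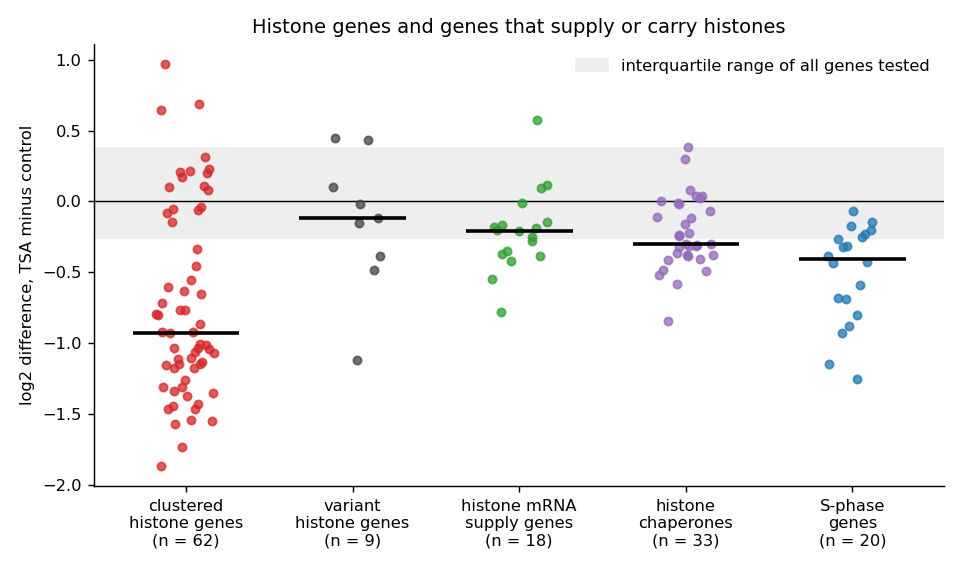
Log2 difference (TSA minus control) of each gene above the minimum in 5 groups, with a bar at the median of each group and a grey band for the interquartile range of all 12019 genes (-0.26 to 0.38). The medians are -0.92 for clustered and -0.11 for variant histone genes, -0.20 for histone mRNA supply genes, -0.30 for histone chaperones and -0.41 for S-phase genes.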

How the data were processed

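Reads of 1 control and 1 TSA library (QuantSeq, single-end reads of 75 nt) were processed by the authors, who deposited 1 log2 value per gene and library, log2 of a normalized count plus 1. The submitters' processing notes name Bowtie2, bedtools and mm10. The normalization, the annotation and the versions are not given in the sources used here. Because the values were not raw counts, whole reads were recovered from their steps (1 read was worth 1.005 normalized counts for control and 0.9951 for TSA), and 99.95% and 99.94% of values of 1 to 300 reads lay within 0.1 of a whole number. A count of 0 allows up to 3 reads, for counting error only.

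Differences were TSA minus control on the deposited scale, which keeps the 1 count added, so that folds at low counts are understated. Genes with a level of 3.5 or more in either library entered the counts. With 1 library per condition no test was run. Fold changes have exact Clopper-Pearson 95% intervals from the recovered reads. PCR copies were not identified, so intervals cover counting error only. The recovery of reads, fold changes and their intervals was tested on simulated libraries, and the sequence searches were not. Gene positions, exons and transcripts came from GENCODE M21 (84 of 84 symbols matched), and promoters from RefSeq GRCm38.p6, matched by gene ID or synonym. Any histone gene above the minimum could be named, with a fixed set of other genes. Cabin1, Rbbp4, Mcm2, Pcna, Cdt1 and Zfp473 lay outside this set and were chosen with the values known. Genes of other cell types served as a check of the cells: CD8 T cell markers summed to 80 and 87 reads, NK cell markers to 892 and 1049 (of which Nkg7, which T cells also express, gave 889 and 1043), and platelet markers to 46 and 50. The members and gene lists were chosen with earlier results of these data known. Alternatives covered scaling, pseudocount, filter, threshold and the members summed. Computations used scipy 1.17.1, pandas 2.3.3, numpy 2.4.6 and matplotlib 3.10.9 under Python 3.11.15.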

Additional observations from a re-analysis of the deposited data

How the results depend on the processing

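The medians of the clustered, variant, supply, chaperone and S-phase genes, and the difference between clustered and variant genes, stayed below 0 with each scaling, added count and filter that was tried. The clustered median ranged from -0.97 to -0.84 and the difference of medians from -0.90 to -0.77. The number of histone genes higher by over 2-fold went from 0 to 1 when libraries were scaled by total reads, by total reads without Rn45s or by the upper quartile, and to 1 with a filter of 1 read, and it was 3 at a threshold of 1.5-fold, where 43 were lower. The number lower by over 2-fold, 31, was 24, 24 and 26 under the same 3 scalings. It was 19 with a filter on the mean normalized count (50 or more), because fewer genes were counted, and 10 when the whole interval had to lie beyond 2-fold. The ratio of summed reads of the clustered genes, 0.417, was 0.438, 0.442 and 0.430 under total reads, total reads without Rn45s and the upper quartile, 0.466 without Hist1h2ap, and 0.545 without Hist1h2ao and Hist1h2ap (an alternative chosen after seeing the data). The ratio of the variant genes, 0.926, was 0.972, 0.982 and 0.954 under the same 3 scalings. Over the 5 other scalings, 5 histone genes changed sign (H3f3a, Hist1h4b, Hist1h4c, Hist1h4m and Hist1h4n) and 8 changed their side of 2-fold (Hist1h4a, Hist1h2ak, Hist3h2a, Hist2h2aa1, Hist2h2aa2, Hist1h2bc, Hist1h3b and Hist1h3c). The median of all genes moved by at most 0.085. With identical pairs counted once, also chosen after seeing the data, the clustered median was -1.002 and 29 genes were lower by over 2-fold. No paired analysis was possible because each condition had 1 library, and leaving out a library was not possible for the same reason. Depth limits the genes with the fewest reads, such as Hist1h3d (14 and 11 reads), whose interval of fold change ran from 0.320 to 1.84.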
